A study of Mus musculus with 15 samples.

Results

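The U1 and U2 small nuclear ribonucleoproteins (snRNPs) open each round of pre-mRNA splicing. U1 binds the start of an intron, U2AF binds the end of it, and U2 is then placed on the branch point with the help of the SF3a and SF3b complexes. A ring of 7 Sm proteins is loaded around the U1 and U2 RNAs in the cytoplasm, while a related ring of 7 LSm proteins (LSm2 to LSm8) sits on U6 RNA. Dividing lymphocytes make these particles in large amounts, and the proteins that compose them are encoded by genes that every cell uses. The genes described here were the 31 that encode these proteins, listed by gene name: 3 U1 proteins, 2 U2-specific proteins, 7 Sm proteins, 3 SF3a subunits, 7 SF3b subunits, 2 U2AF subunits and 7 LSm proteins. All 31 were found in the gene count table, among 55536 annotated genes.

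The libraries came from CD8+ OT-I T cells of mice. OT-I cells carry a transgenic T cell receptor for the ovalbumin peptide SIINFEKL, and the donors were Rag1-/- or Rag2-/- mice with the CD45.1 marker. Cells were transferred into C57BL/6J recipients that received SIINFEKL peptide in both groups, with rat IgG as control (Ag) or with agonist antibodies against the costimulatory receptors CD134 (OX40) and CD137 (4-1BB) (Ag+Costim). Transferred CD8+ CD45.1+ Vα2+ Vβ5+ cells were sorted from spleen and lymph nodes, on day 4 by the labels (the methods state less time). Mice of both sexes and of a range of ages were used, and neither is given for single libraries. Each group held 5 libraries, and naive libraries were not analysed here.

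Library totals ranged from 59.6 to 449.4 M (mega) estimated counts in Ag and from 332.3 to 639.1 M in Ag+Costim, and the smallest count of a member gene in a library was 3203. All values below are counts per 1e6 (CPM) after TMM scaling unless stated. The cells' own markers were present throughout: the sum of 6 CD8 T cell genes was 3120 to 6140 CPM in Ag and 4130 to 5040 CPM in Ag+Costim. Of 4 B cell genes, Cd79a was at 23.2, 93.3 and 32.6 CPM in Ag replicates 1, 3 and 4, at 2.44 and 1.31 CPM in Ag 2 and 5, and at 1.73 to 5.57 CPM in Ag+Costim. Cd79b and Ms4a1 were also higher in Ag 1, 3 and 4 than in Ag 2 and 5. Ighm, the most abundant of the list, was not, at 863, 626, 602, 1040 and 733 CPM in Ag. In Ag+Costim Ighm was at 500 to 737 CPM. The summed B cell list was 643 to 1140 CPM in Ag and 513 to 759 CPM in Ag+Costim. The sum of 5 erythroid genes was 1100 CPM in Ag 3 against 14.7 to 125 CPM in the other Ag libraries and 3.8 to 39.4 CPM in Ag+Costim. Sums of 5 myeloid genes were 46.2 to 124 CPM in Ag and 79.5 to 163 CPM in Ag+Costim, and those of 2 NK genes were 2.09 to 16.4 and 0.473 to 2.16 CPM. Sums of 2 CD4 T cell genes were 2.56 to 10.8 CPM in Ag and 0.792 to 3.35 CPM in Ag+Costim. The part of other cells in the results below was not tested. In such bulk samples, fewer cells of a type and less RNA per cell cannot be told apart.

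The question the comparison addressed was whether costimulation changed the amount of these core splicing proteins' mRNAs over that seen with antigen alone. The fitted log2 fold change (Ag+Costim against Ag) was above 0 for all 31 members, from 0.17 to 0.80, with a median of 0.39. Of all genes tested 37.7% were above 0, and of the 8626 that averaged 10 CPM or more 75.6% were, with a median of 0.24, so that 26 of the 31 members lay above that median (17 without Ag 4, 19 without Ag 1). With upper quartile scaling, 29 of 31 were above 0 (Sf3b5 at -0.005 and Sf3b6 at -0.02) and the gene median moved to 0.02. No member passed the threshold in edgeR's quasi-likelihood test (BH under 0.05), and neither did any of the 24262 genes tested (0%). At an unadjusted p under 0.05 stood 8 members, all higher in Ag+Costim. At that level stood 18.6% of all genes tested, 7.89% with Ag+Costim higher, and among genes with at least 10 CPM 20.2% were higher. DESeq2 called 7 members higher and none lower. It called 2.57% of all genes with an adjusted p higher and 19.7% lower, and 9.83% of genes with at least 10 CPM higher. The voom method of limma here weighted each library by how closely its values followed those of its group, not by a separate measure of quality. With it all 31 members were called higher, against 25.4% of all genes and 57.2% of those with at least 10 CPM. In that fit Ag 2 and 5 had weights of 0.0985 and 0.0654, while those of the other 8 libraries lay between 0.508 and 3.52.

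**Figure D1:**
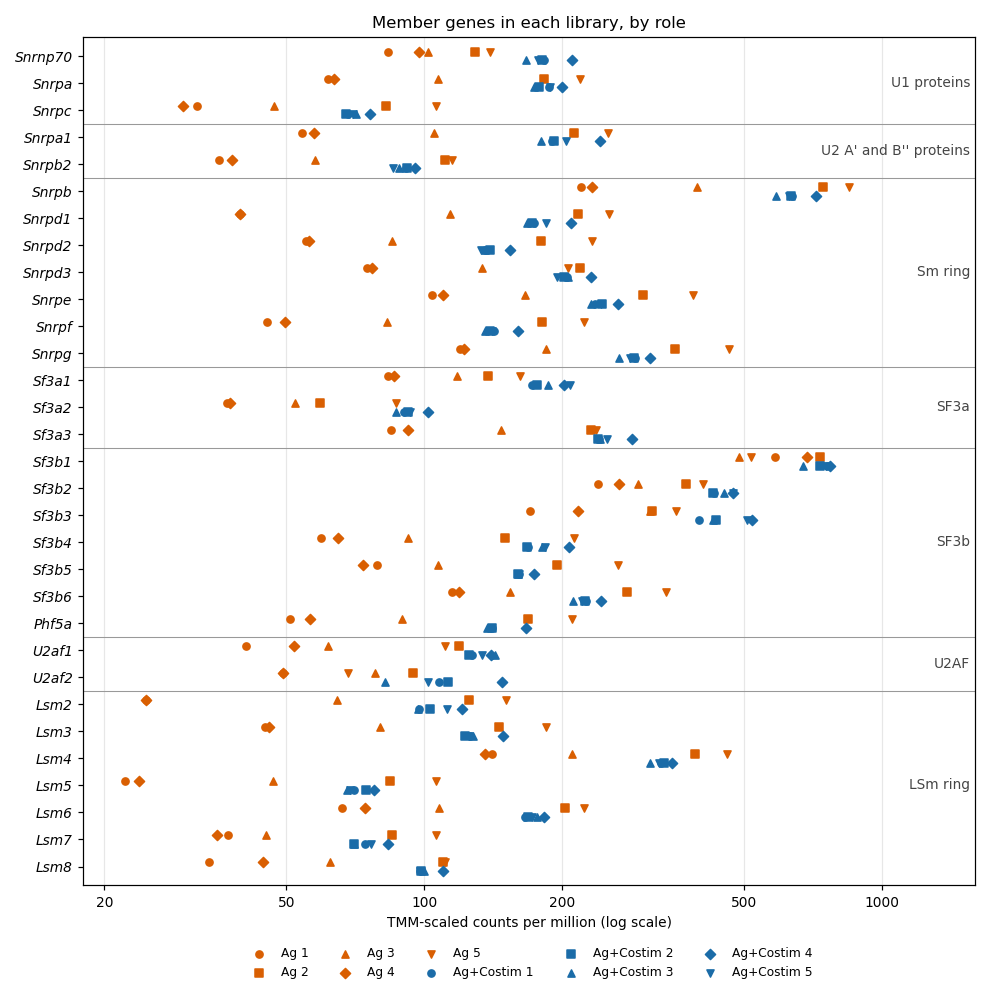
TMM-scaled CPM (log axis) of each of the 31 member genes in the 5 Ag libraries (orange) and the 5 Ag+Costim libraries (blue), with the marker shape giving the replicate number. The Ag+Costim libraries lie close together, whereas the Ag libraries spread, with Ag 1 and 4 as the lowest pair in 30 members and Ag 2 and 5 as the highest pair in 29.

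The libraries of the groups did not overlap for 7 members, each higher in Ag+Costim: Snrnp70, all 3 SF3a subunits, Sf3b2, Sf3b3 and U2af1. Of all genes tested, 4.48% did not overlap with Ag+Costim higher and 1.13% with Ag+Costim lower, and of genes with at least 10 CPM these were 11.3% and 0.22%. None of the 14 Sm and LSm ring genes was among the 7. Leaving out each library in turn gave 5 to 8 such members, where 11.3 to 19.4% of genes with at least 10 CPM did not overlap with Ag+Costim higher, while upper quartile scaling gave 2, where 3.73% did.

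Among the U1 proteins, Snrnp70 encodes the subunit that binds stem-loop I of U1 RNA and lies at chr7:45376453-45395742 (mm10, minus strand). Snrnp70 was at 83.2, 129, 102, 97.5 and 139 CPM in Ag and at 183, 181, 167, 210 and 177 CPM in Ag+Costim. The lowest Ag+Costim library stood above the highest Ag library. The mean was 110.1 ± 23.2 CPM (SD, n = 5) against 184 ± 15.9 CPM, and the log2 fold change was 0.74 (SE 0.16), with an adjusted p of 0.147 by edgeR and 0.000153 by DESeq2. Snrpa, the A protein of U1 that binds stem-loop II, had means of 127 ± 71.0 CPM with antigen and 185 ± 10.1 CPM with costimulation (log2 fold change 0.55, SE 0.34). Snrpc, the zinc finger C protein of U1 that contacts the paired splice site, was at 59.4 ± 33.5 and 70.5 ± 3.47 CPM (0.25, SE 0.33). For both genes Ag 5 exceeded every Ag+Costim library, while Ag 1, 3 and 4 lay below all of them.

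The U2-specific proteins form a pair on a stem-loop of U2 RNA. Snrpa1 (U2 A′; chr7:66059003-66074587, plus strand) was at 54, 213, 105, 57.4 and 252 CPM in Ag and at 190, 192, 180, 242 and 204 CPM in Ag+Costim. Ag 1 and 4 were the lowest of the 10 libraries and Ag 5 the highest, so the groups overlapped (0.56, SE 0.41, adjusted p = 0.402 by edgeR). Its partner Snrpb2 (U2 B″) was at 71.6 ± 39.1 and 90.3 ± 3.72 CPM (0.34, SE 0.33).

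In the Sm ring (SmB, D1, D2, D3, E, F and G, encoded by Snrpb, Snrpd1, Snrpd2, Snrpd3, Snrpe, Snrpf and Snrpg), log2 fold changes were 0.19 to 0.55 with a median of 0.30, and no gene passed by edgeR or DESeq2. Snrpd3 (chr10:75517551-75537381, plus strand), with the lowest p of the ring, was at 74.9, 219, 134, 77 and 206 CPM in Ag and at 205, 202, 206, 232 and 195 CPM in Ag+Costim. Ag 2 and 5 thus lay within the Ag+Costim range and the other 3 Ag libraries below it (0.55, SE 0.30, adjusted p = 0.307 by edgeR). The exons of Snrpd3 share 232 bases with those of Gucd1 on the other strand, whose counts were 26.7% of those of Snrpd3, and the kit did not keep strand. In the other 6 genes Ag 2 and 5 were above every Ag+Costim library and Ag 1, 3 and 4 below every one. Snrpb was at 220, 743, 395, 233 and 850 CPM in Ag and at 588 to 718 CPM in Ag+Costim. Snrpd1 spread most of all members among the Ag libraries, from 39.5 CPM in Ag 1 to 254 CPM in Ag 5, a ratio of 6.43. A copy nearly identical to Snrpe elsewhere in the genome held up to 8.77% as many counts as Snrpe itself.

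The SF3a complex joins U2 to make its active form, and none of its 3 genes overlapped between the groups. Sf3a1 (chr11:4160350-4182541, plus strand) was at 83.4, 138, 118, 86.1 and 162 CPM in Ag and at 172, 176, 186, 202 and 208 CPM in Ag+Costim (117 ± 33.6 against 189 ± 15.5 CPM, 0.69, SE 0.20, adjusted p = 0.201 by edgeR and 0.0150 by DESeq2). Sf3a2 (chr10:80798198-80804924, plus strand) was at 37.1, 59.1, 52.1, 37.6 and 86.7 CPM in Ag and at 90.2, 92.1, 86.9, 102 and 93.3 CPM in Ag+Costim (0.77, SE 0.22, adjusted p = 0.204 and 0.0209). Its exons share 429 bases with Plekhj1 on the other strand, whose counts were 169% of those of Sf3a2, so part of this value may be Plekhj1. Sf3a3 (chr4:124714776-124732460, plus strand) was at 84.5, 232, 147, 92 and 237 CPM in Ag and at 241, 240, 242, 285 and 251 CPM in Ag+Costim (0.67, SE 0.29, adjusted p = 0.268 and 0.0898). For Sf3a2 and Sf3a3 the gap between the groups was narrow, since Ag 5 stood just under the lowest Ag+Costim library.

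The 7 SF3b genes split. Sf3b3, the large beta-propeller scaffold of the complex (chr8:110810239-110846787, minus strand), was at 170, 315, 312, 217 and 355 CPM in Ag and at 399, 434, 427, 521 and 507 CPM in Ag+Costim. Every Ag+Costim library was above every Ag library (274 ± 77.4 against 457 ± 53.3 CPM, 0.74, SE 0.21, adjusted p = 0.201 by edgeR and 0.0164 by DESeq2). Its exons share 188 bases with Cog4 on the other strand, whose counts were 18% of its own. Sf3b2, which contacts the pre-mRNA near the branch point (chr19:5273932-5295455, minus strand), was at 240, 373, 293, 266 and 407 CPM in Ag and at 429, 428, 451, 472 and 472 CPM in Ag+Costim (0.51, SE 0.17, adjusted p = 0.233 and 0.0194). Here too the lowest Ag+Costim library stood above Ag 5, the highest Ag library.

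Sf3b1, which clamps the branch-point helix and is the member most often mutated in blood cancers, was the one member in which Ag 1 and 4 were not the lowest pair of Ag libraries. Sf3b1 was at 584, 733, 487, 688 and 518 CPM in Ag and at 761, 734, 673, 771 and 756 CPM in Ag+Costim (0.30, SE 0.16, adjusted p = 0.297 by edgeR). Ag 3 and 5 were its lowest libraries, Ag 4 was within the Ag+Costim range, and its ratio of highest to lowest Ag library, 1.5, was the smallest of all members. Sf3b4, which binds beside Sf3b2, had a log2 fold change of 0.65 (SE 0.33). The small subunits Sf3b5, Sf3b6, which touches the branch-point adenosine, and Phf5a, which forms part of the branch-point pocket with Sf3b1, were at 0.18, 0.17 and 0.34, and for these 3 Ag 2 and 5 exceeded every Ag+Costim library.

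Both U2AF subunits had large fold changes among the members. U2af1, which reads the AG at the end of an intron (chr17:31647081-31658892, minus strand), was at 40.7, 119, 61.7, 51.9 and 111 CPM in Ag and at 127, 125, 143, 140 and 134 CPM in Ag+Costim. The groups did not overlap (76.8 ± 35.7 against 134 ± 8.06 CPM, 0.80, SE 0.28, adjusted p = 0.244 by edgeR and 0.0398 by DESeq2). Copies nearly identical to U2af1 elsewhere in the genome held up to 15.9% as many counts as U2af1 itself, so its reads may be shared with them. U2af2, which binds the pyrimidine tract (chr7:5062143-5079938, plus strand), was at 49.1, 94.4, 78.2, 49.2 and 68.1 CPM in Ag and at 108, 113, 82.2, 148 and 102 CPM in Ag+Costim. Ag+Costim 3 was below Ag 2, so the groups overlapped at 1 library (0.71, SE 0.22, adjusted p = 0.227 by edgeR and 0.0414 by DESeq2).

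The LSm ring resembled the Sm ring, with log2 fold changes of 0.28 to 0.48, a median of 0.36 and no gene called by edgeR or DESeq2. Lsm8, the subunit that sets this nuclear ring apart from the cytoplasmic ring of mRNA decay (chr6:18848579-18855751, plus strand), was at 33.8, 110, 62.4, 44.5 and 111 CPM in Ag and at 97.9, 98.4, 99.9, 110 and 97.7 CPM in Ag+Costim (0.48, SE 0.31, adjusted p = 0.355 by edgeR). Ag 2 and 5 reached the top of the Ag+Costim range and the other 3 Ag libraries lay below it. Lsm2 ran from 24.6 CPM in Ag 4 to 151 CPM in Ag 5, a ratio of 6.12, whereas Ag+Costim libraries ran from 96.8 to 121 CPM. Near-identical copies held up to 17.2% of the member's own counts for Lsm5 and up to 29.3% for Lsm7.

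**Figure D2:**
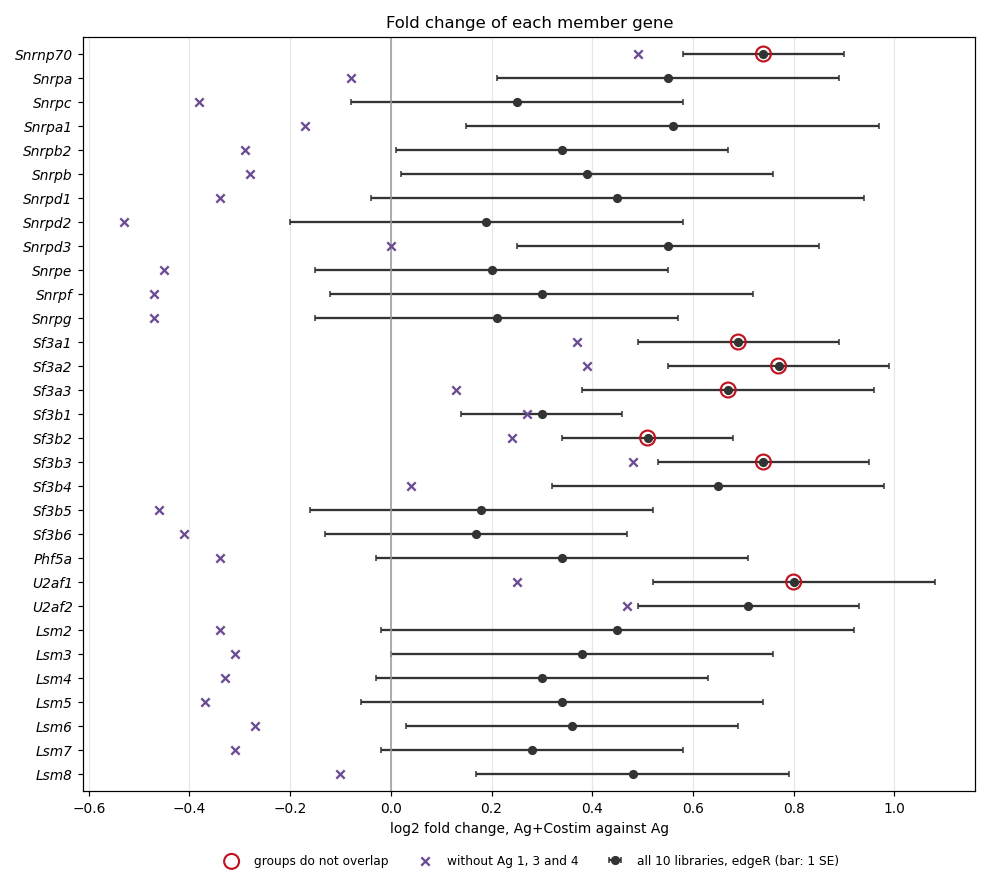
Fitted log2 fold change (Ag+Costim against Ag) of each member with 1 SE from edgeR over all 10 libraries (black), the same without Ag 1, 3 and 4 (purple crosses) and a red ring where the groups do not overlap. All black points are above 0, whereas 21 crosses are below it. The 7 ringed genes have crosses above 0, which the lack of overlap already implies apart from rescaling.

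The ratio of the highest to the lowest Ag library had a median of 3.39 over members, 2.17 over genes with at least 10 CPM, 2.96 over all genes tested and 9.34 over 20 cell cycle genes. Within Ag+Costim it was 1.17 over members and 1.23 over genes with at least 10 CPM. On the CPM scale, Ag 1 and 4 were the lowest pair of Ag libraries in 96.8% of members, and 40.3% of genes with at least 10 CPM shared that order. Ag 2 and 5 were the highest pair in 93.5% of members, against 53.8% of those genes. In 30 of 31 members (all but Sf3b1), Ag 1, 3 and 4 all lay below every Ag+Costim library, as did 56.4% of genes with at least 10 CPM. In 16 of 31, Ag 2 and 5 at the same time lay above every Ag+Costim library, a pattern that 14.5% of genes with at least 10 CPM had. These 16 comprised 11 of the 14 ring genes and none of the SF3a or U2AF genes.

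The summed levels of the rings and of SF3a and U2AF showed the same split. The Sm ring summed to 659, 2200, 1160, 688 and 2620 CPM in Ag and to 1730 to 2050 CPM in Ag+Costim, and the LSm ring to 370, 1140, 616, 384 and 1340 CPM and 951 to 1070 CPM. For both rings Ag 2 and 5 were above and Ag 1, 3 and 4 below the Ag+Costim libraries. SF3a summed to 205, 430, 317, 216 and 485 CPM in Ag and 503 to 588 CPM in Ag+Costim, and U2AF to 89.8, 214, 140, 101 and 179 CPM and 225 to 288 CPM, with no overlap in either. The other roles followed neither pattern: U1 summed to 177, 394, 256, 191 and 464 CPM in Ag and 412 to 486 CPM in Ag+Costim. The U2-specific pair summed to 89.6, 325, 163, 95.3 and 367 CPM and 268 to 337 CPM, and SF3b to 1300, 2210, 1540, 1480 and 2310 CPM and 2240 to 2550 CPM. The summed CPM of 20 cell cycle genes moved with the members across the Ag libraries, at 1540, 11200, 7160, 1660 and 12400 CPM against 11400 to 14400 CPM in Ag+Costim. In all 20 of those genes Ag 1 and 4 were the lowest pair, and 5 of them (Mki67, Top2a, Mcm2, Mcm4 and Mcm6) did not overlap between the groups. Their median log2 fold change was 0.90, edgeR called 0 of them with 1 at an unadjusted p under 0.05, and DESeq2 called 1. The part of cell cycle state in the members' differences was not tested.

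**Figure D3:**
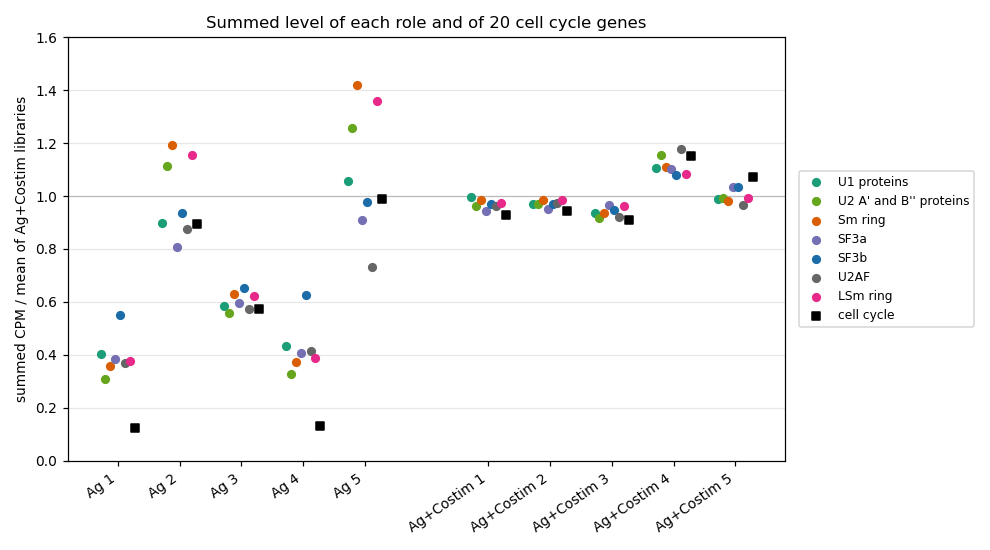
Summed CPM of each role and of 20 cell cycle genes (black squares) in every library, divided by the mean of the 5 Ag+Costim libraries. In Ag 1 and 4 every role is below 1, in Ag 2 and 5 the Sm and LSm rings are above 1, and SF3a and U2AF are below 1 in all 5 Ag libraries.

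Because Ag 1, 3 and 4 held more Cd79a counts than the other libraries, the fit was repeated without them, an alternative chosen after seeing the data. Ighm, another of the B cell genes, did not follow that split. With Ag 2 and 5 alone, 13 members were called by edgeR, where 10.8% of all genes tested were called (7.51% higher and 3.32% lower in Ag+Costim, and 9.61% and 8.89% of genes with at least 10 CPM). Snrnp70 (0.49, adjusted p = 0.0225) and Sf3b3 (0.48, adjusted p = 0.0402) were higher in Ag+Costim, while Snrpc, Snrpb2, Snrpd2, Snrpe, Snrpf, Snrpg, Sf3b5, Sf3b6, Lsm4, Lsm5 and Lsm6 were lower. The members' median turned to -0.28 while that of genes with at least 10 CPM was 0.05, and 10 of 31 members stayed above 0. In 11 of the 14 ring genes, Ag 2 and 5 already lay above every Ag+Costim library. This fit therefore restates those values and is no separate test of them. The direction for the ring genes depended on which Ag libraries were used. The 7 genes listed above without overlap, Sf3b1, Sf3b4 and U2af2 remained above 0. For those 7 genes every Ag library already lay below every Ag+Costim library. Their direction here therefore followed from that, apart from rescaling, and is no further support. With single libraries left out, the members' median was lowest, 0.22, without Ag 1 or without Ag 4, and highest, 0.60 without Ag 2 and 0.70 without Ag 5.

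Levels between genes were compared per transcript length, as transcripts per 1e6 (TPM). In Ag+Costim, Snrpb was the most abundant member with 840.2 ± 55.5 TPM (SD, n = 5), followed by Snrpe with 724 ± 34.1, Lsm4 with 549.7 ± 20.1, Snrpg with 432 ± 21.1 and Snrpd1 with 338 ± 26.2 TPM. The least abundant were Sf3b5 with 64.8 ± 1.79 and Sf3a1 with 59.4 ± 4.42 TPM. Within the Sm ring, levels ran from that of Snrpb down to 129.8 ± 10.9 TPM for Snrpd3. In order of level, 26 of the 30 pairs of neighbours overlapped between libraries. The 4 that did not were Snrpe over Lsm4, Lsm4 over Snrpg, Snrpg over Snrpd1 and Snrpd3 over Lsm6. In Ag, Snrpb (649 ± 242 TPM), Snrpe, Lsm4 and Snrpg again led and Sf3a1 (40.9 ± 3.14 TPM) again came last. The order of the Ag libraries differed from that in CPM for some members. Sf3b2 was at 170, 166, 172, 174 and 156 TPM in Ag, and Sf3a1 at 39.6, 40.8, 46.1, 37.7 and 40.1 TPM. Sf3b1 had means of 205 ± 72.9 TPM in Ag and 203 ± 10.8 TPM in Ag+Costim. In the Sm ring genes Ag 1 and 4 stayed the lowest pair of Ag libraries in TPM. In Ag+Costim every member lay between the 92.9 and 99.6 percentiles of the 41028 genes with counts. The order depends on the length used: with the merged exons of each gene as length, the members' median fell from 203 to 144 TPM and 12 members moved by more than 5 ranks.

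**Figure D4:**
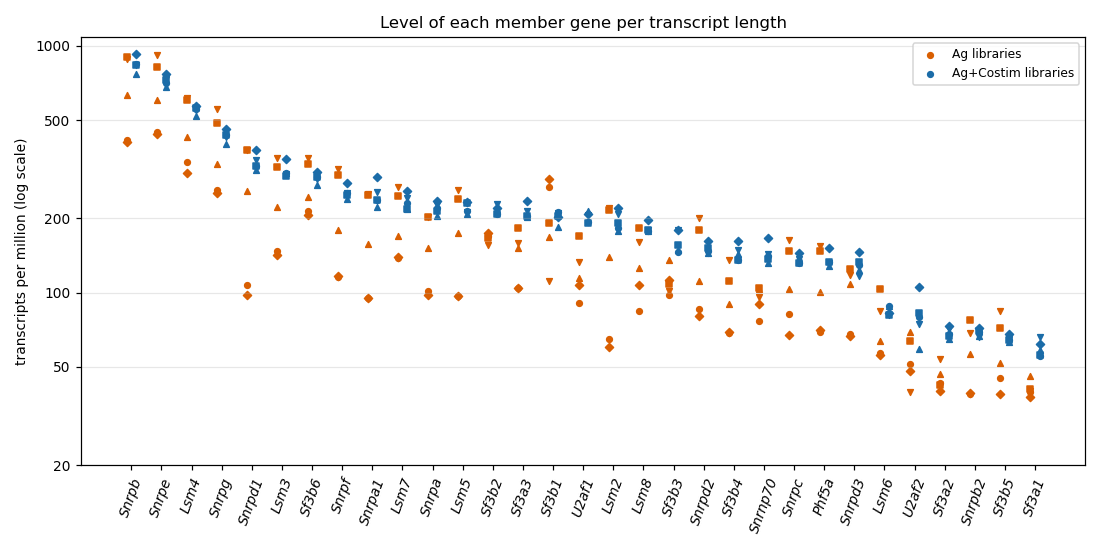
TPM (log axis) of each member in each library, ordered by the Ag+Costim mean, with Ag libraries in orange and Ag+Costim libraries in blue. The members range from 840.2 TPM for Snrpb to 59.4 TPM for Sf3a1 in the Ag+Costim mean, and most neighbours overlap.

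Genes around the snRNPs were given by lists. Beside the counts of each list stand the shares of all genes with at least 10 CPM. Of those, 20.2% were higher at an unadjusted p under 0.05 by edgeR, and DESeq2 called 9.83% higher. Without overlap were 11.3% with Ag+Costim higher and 0.22% with Ag+Costim lower. The lists were not tested against these shares. Of 25 genes of snRNP assembly and import (the SMN complex, the methylosome, cap-binding and import factors), 24 had a log2 fold change above 0 with a median of 0.53, edgeR called 0 with 8 at an unadjusted p under 0.05, DESeq2 called 7 higher, and 4 did not overlap (Ddx20, Gemin5, Ncbp3 and Kpnb1). Kpnb1, importin beta, which carries snRNPs into the nucleus, was at 73.5, 126, 109, 75.9 and 109 CPM in Ag and at 163, 172, 165, 201 and 195 CPM in Ag+Costim (0.86, SE 0.18, adjusted p = 0.141 by edgeR and 0.000173 by DESeq2). The log2 fold changes of Gemin5, which recognises the snRNA, and Ncbp3, a cap-binding protein, were 0.85 (SE 0.23) and 0.43 (SE 0.12).

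Of 28 genes associated with U1 or U2, the median was 0.36, edgeR called 0 with 12 at an unadjusted p under 0.05, DESeq2 called 7 higher and 1 lower, and 8 did not overlap with Ag+Costim higher and 1 lower. The helicase Ddx42 was at 73.6, 105, 95.7, 95 and 88.5 CPM in Ag. With costimulation it was at 135, 134, 130, 165 and 134 CPM, a log2 fold change of 0.61 (SE 0.14), and the U2-associated proteins U2surp and Cherp differed by 0.61 (SE 0.14) and 0.65 (SE 0.16). The single lower gene, Zrsr1, named after its values were seen, is a relative of U2af1 and stood at 3.22 to 4.91 CPM in Ag and at 1.89 to 2.87 CPM in Ag+Costim (-0.79, SE 0.24).

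Of 15 other LSm and decapping genes, the median was 0.28, edgeR called 0 with 4 at an unadjusted p under 0.05, DESeq2 called 2 higher, and 3 did not overlap. Patl1, which binds the cytoplasmic LSm ring, was at 23, 28.4, 22.3, 24.7 and 20.9 CPM in Ag and at 35.8, 37.8, 34, 41.4 and 39.5 CPM in Ag+Costim (0.66, SE 0.12, adjusted p = 0.134 by edgeR). Its Ag libraries thus lay close together and apart from Ag+Costim. Edc4 and Edc3, decapping scaffolds, differed by 0.55 (SE 0.14) and 0.29 (SE 0.12). Of 7 proteins of the minor spliceosome, the median was 0.24, edgeR called 0 with 1 at an unadjusted p under 0.05 (Pdcd7, 0.51, SE 0.18), DESeq2 called 0, and all 7 overlapped between the groups. The next by p, Snrnp35 and Rnpc3, were at 0.66 (SE 0.33) and 0.25 (SE 0.14).

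The comparison of transcript usage asked whether the share of a gene's counts on each of its annotated transcripts differed. Of 29 member genes tested (all but Snrpf and Sf3b5), none was called at a gene-level adjusted p under 0.05 with a change of share above 0.1, against 0.297% of the 10441 genes tested. Lsm7 passed the p threshold alone (adjusted p = 0.00883 by edgeR and 0.000619 by limma), with a largest change of 0.0822. That threshold alone was passed by 0.431% of genes, and by 0.383% with a change above 0.05. Its main transcript Lsm7-201 took 48.8, 88.5, 87.5, 80.3 and 91.6% of counts in Ag and 83.6 to 91% in Ag+Costim, so that Ag 1 stood far from the rest. With Ag 2, 3 or 5 left out, Lsm7 was called. Lsm7-209, annotated without a coding sequence, took 0.31% in Ag 1, was listed at 0 in the other 4 Ag libraries and took 1.86 to 6.21% in Ag+Costim. If counts were reads, a count of 0 there would allow a share of up to 0.0937% in Ag 3, the shallowest library, for counting error only. The counts were derived from coverage and are no read numbers, so this limit is approximate.

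Among 149 member transcripts tested, the shares of 4 did not overlap between the groups, against 2.45% of 46774 transcripts. Besides Lsm7-209 these were Snrpc-201 (66.9 to 86.9% in Ag, 87 to 89.1% in Ag+Costim), Lsm3-201 (12.9 to 15.4% and 10.8 to 12.6%) and Sf3b2-204, a retained intron transcript (0.241 to 1.41% and 0.0767 to 0.234%). For each, the two-sided exact permutation test gave p = 0.00794, the smallest that 5 against 5 libraries allow, and 0.324 after adjustment over all transcripts. That p follows from the lack of overlap by which these transcripts were picked and is no further support. Of the genes next in the usage test, Snrpd1 and Sf3b6 had 93.9 to 95.7% and 96.8 to 99.8% of counts on their main coding transcript in the 10 libraries, and Sf3b2 had 96.4 to 99.4%. Snrpd1 had a gene-level p of 0.111, Sf3b6 0.155 and Sf3b2 0.180 before adjustment.

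Several members have annotated transcripts with a segment that brings in an early stop codon or shifts the frame, and some of these segments are described next, chosen after their values were seen. Snrpe-206, an NMD transcript not shown here, took 8.41 ± 3.63% of Snrpe counts in Ag and 12.9 ± 2.54% in Ag+Costim, with overlap. U2af1 has a pair of exons of equal length of which one or the other is normally used. They are shown because their sequences differ while their length does not (mm10, minus strand, from GENCODE M21 transcripts), and the stop codon read when both are joined is in capitals.

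U2af1 upstream exon, chr17:31652502-31652568: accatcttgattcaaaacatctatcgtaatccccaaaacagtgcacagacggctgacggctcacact
U2af1 downstream exon, chr17:31651646-31651712: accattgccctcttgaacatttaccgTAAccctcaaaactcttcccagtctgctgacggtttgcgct

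The exons are 67 bases long and identical at 44 positions (65.7%). Transcripts with the downstream exon alone took 71.3, 61.9, 66.9, 61.8 and 73.4% of U2af1 counts in Ag and 70.8, 70.6, 68.2, 64.5 and 64.3% in Ag+Costim. Those with both exons (U2af1-208, annotated as a target of nonsense-mediated decay, NMD, and U2af1-205, a processed transcript of at most 0.256% of counts) took 13.6, 25.6, 21.2, 20.6 and 14.3% in Ag and 20.9, 17.3, 23.2, 23.6 and 25.7% in Ag+Costim (exact permutation p = 0.254, and 0.508 after BH adjustment over the 8 segment shares computed). The upstream exon alone took 7.23 to 11.8% and 6.08 to 10.4%. The choice within the pair thus overlapped between the groups. In the PSI table (the fraction of transcripts that include a segment), the upstream exon was at 0.117 in Ag and 0.0880 in Ag+Costim and the downstream exon at 0.919 and 0.933. The PSI of the pair summed to 1.04 and 1.02, which exceeds 1 by far less than the share of transcript counts with both exons, so the deposited tables gave different values for the inclusion of both.

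Snrnp70 has a transcript, Snrnp70-215, in which an exon of 1360 bases follows an internal exon (chr7:45381825-45383184). The first bases of this exon after 20 bases of the exon before are shown up to the first stop codon in frame, in capitals, at chr7:45383159-45383184 on the minus strand.

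Snrnp70 added exon: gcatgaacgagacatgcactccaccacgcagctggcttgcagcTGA

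Transcripts with an exon that begins at the same base (Snrnp70-215, Snrnp70-216 with a longer exon of 2468 bases, and Snrnp70-204) together took 68.5, 28.1, 29.5, 59.3 and 10.5% of Snrnp70 counts in Ag and 42, 45, 37.5, 33.1 and 30.4% in Ag+Costim (39.2 ± 24 against 37.6 ± 6.05%, exact permutation p = 0.913 before and after adjustment). The means lay within 1 SD of each other, while the Ag libraries spread widely, with Ag 1 and 4 above and Ag 5 far below all Ag+Costim libraries. Snrnp70-215 alone had mean shares of 12.2 ± 16.7% and 19.5 ± 3.31%: it took 32.7 and 28.2% in Ag 1 and 4, was listed at 0 in Ag 2 and 3, stood at 0.0717% in Ag 5 and took 16.2 to 23.4% in Ag+Costim. Usage of Snrnp70 passed by limma (adjusted p = 0.00130, change -0.0889) but not by edgeR (adjusted p = 1). The coding transcript Snrnp70-201 was at 21.2, 86.8, 65.5, 34.1 and 120 CPM in Ag and at 93.5 to 135 CPM in Ag+Costim, with overlap from Ag 5 alone.

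Sf3b1 has a transcript that keeps an intron of 1813 bases (chr1:55014563-55016375). The 143 bases from the start of the intron to the first stop codon in frame (capitals) are shown after 20 bases of exon, at chr1:55016233-55016375 on the minus strand.

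Sf3b1 retained intron: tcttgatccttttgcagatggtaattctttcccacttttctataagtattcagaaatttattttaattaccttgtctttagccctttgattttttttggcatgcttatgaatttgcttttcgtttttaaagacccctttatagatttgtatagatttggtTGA

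Transcripts with the start of this intron took 26.6, 11.9, 14.4, 27 and 4.51% of Sf3b1 counts in Ag and 11.3, 10.8, 9.42, 6.44 and 10.1% in Ag+Costim (16.9 ± 9.75 against 9.62 ± 1.91%, exact permutation p = 0.183, adjusted 0.487). Ag 1 and 4 were the highest here and Ag 5 the lowest. The main coding transcript Sf3b1-201 was at 421, 640, 410, 495 and 491 CPM in Ag and at 605 to 719 CPM in Ag+Costim, with overlap from Ag 2.

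In Snrpa1 an exon of 80 bases, which is not a multiple of 3, can be skipped. It is shown in capitals between 20 bases of each neighbouring exon, and lies at chr7:66070119-66070198 on the plus strand.

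Snrpa1 skipped exon: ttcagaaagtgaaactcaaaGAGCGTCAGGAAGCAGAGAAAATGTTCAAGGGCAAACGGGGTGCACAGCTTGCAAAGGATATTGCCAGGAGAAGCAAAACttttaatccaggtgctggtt

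Transcripts that skip it took 17, 13.3, 12.9, 23.1 and 7.87% of Snrpa1 counts in Ag and 12.1, 8.63, 8.88, 8.78 and 9.12% in Ag+Costim. In 4 of the 5 Ag libraries the share exceeded every Ag+Costim library, and in Ag 5 it was below all of them (14.8 ± 5.64 against 9.5 ± 1.46%, exact permutation p = 0.0794, adjusted 0.317). The PSI of this exon, 1 value per group, was 0.945 in Ag and 0.989 in Ag+Costim. These values leave less skipping in each group than the transcript counts gave, so the deposited tables differed for this segment too.

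Snrpb has an additional exon of 124 bases that is known as an autoregulated NMD exon of SmB. The first 58 bases up to the stop codon in capitals are shown, at chr2:130176695-130176752 on the minus strand.

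Snrpb additional exon: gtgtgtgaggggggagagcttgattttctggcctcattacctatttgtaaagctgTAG

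Transcripts with this exon (Snrpb-203, an NMD transcript, and Snrpb-202, of the retained intron type) took 4.71, 3.48, 3.37, 3.55 and 3.61% of Snrpb counts in Ag and 3.04, 3.3, 2.92, 2.78 and 3.5% in Ag+Costim (3.74 ± 0.549 against 3.11 ± 0.291%, exact permutation p = 0.0238, adjusted 0.190). Snrpb-203 alone took 1.91 ± 0.466% in Ag and 1.55 ± 0.313% in Ag+Costim, and Snrpb-202 alone 1.84 ± 0.383 and 1.56 ± 0.242%. Each alone overlapped between the groups, with an exact permutation p of 0.198 before adjustment. For the summed share, the order of single libraries was as follows. Ag 2 and 3 lay within the Ag+Costim range. The level of Snrpb itself differed 3.86-fold between Ag 1 and Ag 5.

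The U2af2 exon at chr7:5075141-5075239 (plus strand) has a longer form that adds 12 bases, or 4 residues, in capitals.

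U2af2 exon: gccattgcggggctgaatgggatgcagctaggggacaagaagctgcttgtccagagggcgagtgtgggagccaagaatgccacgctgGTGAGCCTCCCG

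The transcript with the longer form took 67.2 to 77.9% of U2af2 counts in Ag and 72.5 to 74.7% in Ag+Costim, whereas the PSI of those 12 bases was 0.197 and 0.199. The deposited transcript counts and PSI values thus gave different shares for this segment, and in both the groups were close to each other.

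**Figure D5:**
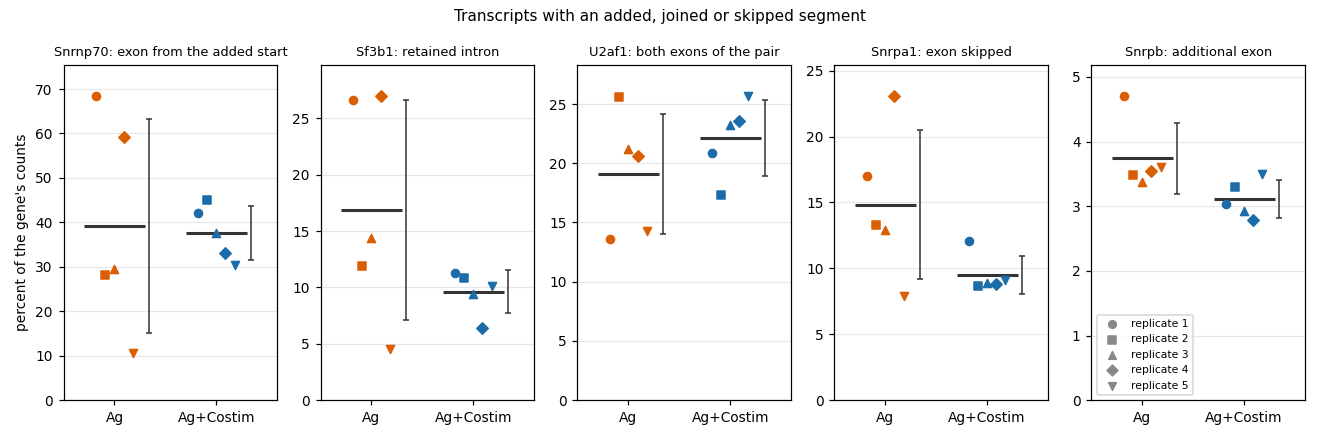
Percent of a gene's counts on transcripts with the segment or exon start named above each panel, for each Ag (orange) and Ag+Costim (blue) library, with the mean (line) and SD (bar) of 5 libraries. The Snrnp70 and Sf3b1 shares are highest in Ag 1 and 4 and lowest in Ag 5, and all 5 panels overlap between the groups.

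Over all members, transcripts annotated as NMD targets or retained introns took 11.2, 4.64, 5.76, 11.6 and 2.55% of counts in Ag and 5.12, 5.04, 4.54, 3.86 and 4.42% in Ag+Costim (7.16 ± 4.07 against 4.6 ± 0.511%). Ag 1, 3 and 4 were above and Ag 5 below all Ag+Costim libraries, nearly the reverse of the order of the members' own levels. The difference of means, -2.57 percentage points, was -1.45 without Ag 4, -1.55 without Ag 1 and -3.72 without Ag 5. Over all protein-coding genes the share was 6.89 ± 2.64% and 5.40 ± 0.292%. It was 9.93, 4.55, 6.71, 9.18 and 4.06% in Ag and 5.03 to 5.82% in Ag+Costim. There too Ag 1, 3 and 4 were above and Ag 5 below all Ag+Costim libraries, so that order was not particular to the members. In the members, retained introns carried the difference (5.90 ± 4.15 against 3.16 ± 0.540%), while NMD transcripts took 1.27 ± 0.303 and 1.44 ± 0.0979%. The mean share was lower in Ag+Costim for 23 members and higher for 4, and no member was without overlap. Snrnp70 had the highest share (42.5 ± 25.2 against 38.8 ± 6.24%).

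The PSI table held 243 segments of 30 members, with 1 value per group and no replicates, so these values have no test. Of 194 core exons, 186 were included at over 0.95 in both groups (95.9%, against 77.3% of 108413 core exons of all genes), and no core exon of a member differed by more than 0.05, as 5.5% of all core exons did. Past 0.05 were 4 segments, all at transcript ends, where 11.9% of all segments were past it, and none was past 0.1, as 5.87% were. The shares over all genes were not limited to genes expressed as highly as the members, so they are not matched for level. In Lsm3, the end at chr6:91522241-91522620 went from 0.797 in Ag to 0.867 in Ag+Costim, and that at chr6:91522621-91522625 from 0.203 to 0.133. In U2af2, the end at chr7:5079584-5079932 went from 0.998 to 0.935, and the single base chr7:5079933 from 0.0015 to 0.0529. In each gene these are neighbouring ends whose values moved against each other, so they are not separate changes. The last named segment was 5 bases long in Lsm3 and 1 base in U2af2.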

How the data were processed

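Poly(A) RNA was amplified with an ultra-low input kit, which does not mark strand, and sequenced on 1 lane, the lane number of all libraries being 4 in the deposited sheet. The authors aligned reads to mm10 with HISAT2 2.1.0, sorted them with SAMtools 1.9 and deposited gene and transcript expected counts from StringTie 2.1.0, rounded to whole numbers and not normalized (GENCODE M21 identifiers, through which the members' symbols were matched). StringTie derives such counts from coverage, and a library's total is therefore no read number. The authors also deposited PSI values as a fraction per group for splicing segments, made with Whippet. The difference and probability columns of that table hold the authors' comparison and were not used. Rows without a gene name (0.0458 to 0.308% of counts) were left out.

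Gene counts of the 10 libraries were tested with edgeR 4.0.16 in R 4.3.3 (quasi-likelihood test, filterByExpr by group, TMM, group as the one factor), and p-values were adjusted by Benjamini-Hochberg (BH) across every tested gene. DESeq2 1.42.0 and limma 3.58.1 (voom with library weights) were alternatives. In the text, "adjusted p" beside a log2 fold change is from the tool named, and where a pair is given, from edgeR and then DESeq2. Transcript usage was tested with edgeR diffSpliceDGE (Simes p per gene), and limma diffSplice was an alternative. Single shares were compared with two-sided exact permutation tests over the 252 assignments of 5 against 5. Tests were run on simulated data first. TPM was computed from transcript counts and annotated lengths. Near-identical copies were found with BLAST+ 2.17.0 (at least 95% identity over at least 50% of a transcript).

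The labels number the replicates, and nothing in the sources says that numbers pair animals, so p-values measure the spread between these samples. Correlations of same-numbered samples' deviations from the group means, over 8626 genes, were 0.209, -0.013, -0.199, -0.437 and 0.049, so the numbers were not taken as pairs. Members and lists were chosen with earlier results of these data known. Values in every library are given for members whose groups do not overlap and, in roles without one, for the member with the lowest p. Other genes named had the lowest p of their list. Sf3b1, Snrpb and U2af2 values, and the transcripts and segments outside the usage rule, were chosen after their values were seen. 1 further marker gene is not reported here.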

Additional observations from a re-analysis of the deposited data

Results flagged for a closer look

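In groups of 5 libraries, the highest or lowest library was compared with its group by Dixon's ratio, and 11 of the 98 groups tested had a library far from the others, where chance gives about 1 in 20. Of these, 7 were gene levels in which Ag+Costim 4 was the highest library: Snrpd2 was at 154 CPM with the others at 133 to 139, Snrpf at 160 with 136 to 142, Sf3a3 at 285 with 240 to 251, Sf3b5 at 174 with 160 to 161, Phf5a at 167 with 137 to 141, Lsm3 at 149 with 123 to 128 and Lsm8 at 110 with 97.7 to 99.9 CPM. The member genes are from 1 library here and are not independent of each other. The summed cell cycle genes were also highest in that library, at 14400 CPM with the others at 11400 to 13400 CPM.

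In transcript shares, Ag+Costim 1 had the highest share of Snrpa1-201, 12.1% with the others at 8.63 to 9.12%, and the same values came from all Snrpa1 transcripts that skip the exon (12.1%). Ag 1 had the lowest share of Lsm7-201, 48.8% with the others at 80.3 to 91.6%, and the highest share of Snrpb transcripts with the additional exon, 4.71% with the others at 3.37 to 3.61%.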

How the results depend on the processing

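Every member had at least 3203 estimated counts in each library, which were derived from coverage and are no read numbers. The spread of the 5 Ag libraries, up to 6.43-fold in a member gene, sets the limit, and the PSI values have no replicates. Of 558 alternative values of single members' log2 fold changes, 495 kept direction and side of the threshold. Another 40 kept direction and passed it newly (31 by voom, 7 by DESeq2 and 2 without Ag 1, 3 and 4). The other 23 changed sign. The members called lower without Ag 1, 3 and 4 (named above) are counted among those that changed sign, though they passed the threshold too.

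The members' median (0.39) was 1.18 by voom and -0.28 without Ag 1, 3 and 4, and 0.22 to 0.70 with single libraries left out. It stood at 0.15 above the median of genes with at least 10 CPM by TMM, 0.19 by DESeq2 size factors, 0.25 by total counts, 0.2 by upper quartile and 0.74 by voom, and at 0.01 without Ag 4 (17 of 31 members above it), 0.05 without Ag 1 (19 of 31) and -0.33 without Ag 1, 3 and 4 (9 of 31). Members called went from 0 to 7 by DESeq2, 31 by voom and 13 without Ag 1, 3 and 4, and stayed at 0 with any single library left out. Members without overlap went from 7 to 2 by upper quartile and were 5 to 8 with single libraries left out. Changes of sign were Sf3b5 (-0.005) and Sf3b6 (-0.02) by upper quartile. Without Ag 1, 3 and 4 they were Snrpa (-0.08), Snrpc (-0.38), Snrpa1 (-0.17), Snrpb2 (-0.29), Snrpb (-0.28), Snrpd1 (-0.34), Snrpd2 (-0.53), Snrpd3 (-0.002), Snrpe (-0.45), Snrpf (-0.47), Snrpg (-0.47), Sf3b5 (-0.46), Sf3b6 (-0.41), Phf5a (-0.34), Lsm2 (-0.34), Lsm3 (-0.31), Lsm4 (-0.33), Lsm5 (-0.37), Lsm6 (-0.27), Lsm7 (-0.31) and Lsm8 (-0.1).

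Genes called in the lists of snRNP assembly, U1 and U2 associated, other LSm and decapping, and minor spliceosome genes were 0 in edgeR, 7, 8, 2 and 0 by DESeq2, 23, 23, 8 and 4 by voom, 4, 6, 5 and 2 without Ag 1, 3 and 4, and 0 with any single library left out. Of the 8626 genes with at least 10 CPM, DESeq2 called 848 (9.83%) higher and 266 lower. Voom called 4932 (57.2%) of them higher and 1049 lower. Without Ag 1, 3 and 4, edgeR called 9.61% of them higher and 8.89% lower. Genes without overlap in snRNP assembly were 2 by upper quartile, 14 with no filter, 9 without Ag 1, 3 and 4, and 4 to 10 with single libraries left out (10 without Ag 5). In the U1 and U2 associated list they were 4 by upper quartile and 9 to 11 with single libraries left out. In the decapping list they were 0 by total counts, 8 without Ag 1, 3 and 4, and 3 to 5 (5 without Ag+Costim 4), and in the minor spliceosome list 1 with no filter, 4 without Ag 1, 3 and 4, and 0 to 2 (2 without Ag 5). The share of other genes without overlap is given above for upper quartile scaling and for single libraries left out. For the other settings it is not given, so these counts are no result about the lists.

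Member genes with changed usage were 0 to 1 with single libraries left out (Lsm7, without Ag 2, 3 or 5) and 1 with a minimum change of share of 0.05. Over all genes, 31 were called, against 145 by limma, 19 with at least 50 counts in 5 libraries and 33 to 92 with single libraries left out. Segments past a PSI difference of 0.1 were 0, and the PSI probability alternatives were not run. The median level was 144 in place of 203 TPM with merged exon lengths. The difference in NMD and retained intron share (-2.57 percentage points) was -3.72 to -1.45 with single libraries left out and -1.43 as a mean over single members. With the replicate number as a block, the members' median was 0.61, 0 members were called and usage called 30 genes and 0 members. The cause of these changes was not tested.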
